A study of Homo sapiens with 4 samples.

Results

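The genes described here are 33 genes of cholesterol and fatty acid synthesis and of its sterol sensors, followed in U2OS cells, a human osteosarcoma line, after the microtubule drug nocodazole. They were named as a list by pathway, and each was matched to the array by gene symbol: a row of the deposited table had to carry that symbol alone, and where a gene had several such rows the brightest on average was used. In this way 30 of the 33 were measured, among 21469 genes in all. They were 21 of 22 sterol pathway genes, 7 of 8 fatty acid pathway genes and 2 of 3 genes of LXR (the liver X receptor, a sensor of oxidised cholesterol). FADS1 and MYLIP share their row with a microRNA gene and FDFT1 had no row with its symbol, so these 3 were not analysed here. The study had 4 arrays, replicates 2 and 3 of cells given the solvent DMSO and replicates 2 and 3 of cells given nocodazole. Per the labels' protocols, all cells were starved of serum for 24 h, held in thymidine for 24 h, released for 3 h and then treated for 48 h. All 4 sample titles also hold the word PLKO.1, left unexplained in the labels. The series title asks about secreted senescence factors in cells that have slipped out of a mitotic arrest. The submitters speak of biological replicates but do not say whether these were separate cultures, and the p-values measure only the spread between these arrays.

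Cells make cholesterol from acetyl-CoA through the mevalonate pathway, which leads to squalene, and then through a series of sterol-modifying steps. The transcription factors of the SREBP family switch on most of these enzymes when the endoplasmic reticulum runs low in sterol: the escort protein SCAP then carries SREBP to the Golgi for cleavage, while the INSIG proteins hold SCAP back when sterol is plentiful. SREBP-1, the product of SREBF1, also drives fatty acid synthesis, and LXR responds to excess sterol by raising the exporter ABCA1 and the SREBF1 gene. NF-Y, which binds the CCAAT box, is a known partner of SREBP at sterol-regulated promoters.

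The CCAAT box can be searched for in the promoter sequences of the genes. RefSeq promoter windows (GRCh38.p14) were found for 29 of the 33 genes, and the 250 bases before each start were searched on both strands. The CCAAT box stood in at least 1 window of 19 of the 29 genes, which is 65.5%, against 37.0% of all 27305 genes in the table and 32.0% of its 35116 windows. By pathway it was found in 14 of 19 sterol genes, 3 of 7 fatty acid genes and 2 of 3 LXR genes. The fatty acid share lay near that of all genes. The E-box CACGTG was found in 4 of the 29 genes (SC5D, INSIG1, SCAP and ABCA1), or 13.8%, against 7.73% of all genes. The sterol regulatory element, searched as TCACNCCAC, was found in none of the 29 and in 1.09% of all genes, and the DR4 element of LXR in none of the 29 and in 0.0183% of all genes. For the last 2 elements, which are so rare over all genes, no match among 29 genes was likely beforehand and tells little. Only these exact letters were searched. These are matches of letters in a window and not binding sites. Windows of 3 sterol-regulated genes are printed to show the feature, HMGCS1 with the largest value above 0 among the members, STARD4 with the lowest value among members that have a single start in the table and a CCAAT box, and INSIG1, the sterol feedback gene that holds both boxes. Capitals mark the CCAAT box (ATTGG on the other strand) and, in INSIG1, the E-box.
HMGCS1, chr5:43313413-43313662, minus strand, matches beginning 155 and 100 bases before the start: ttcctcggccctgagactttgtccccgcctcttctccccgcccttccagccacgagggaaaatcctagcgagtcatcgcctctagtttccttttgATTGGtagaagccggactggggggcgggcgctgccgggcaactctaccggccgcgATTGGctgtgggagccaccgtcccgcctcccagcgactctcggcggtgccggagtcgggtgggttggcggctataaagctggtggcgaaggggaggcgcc
STARD4, chr5:111512536-111512785, minus strand, matches beginning 161 and 130 bases before the start: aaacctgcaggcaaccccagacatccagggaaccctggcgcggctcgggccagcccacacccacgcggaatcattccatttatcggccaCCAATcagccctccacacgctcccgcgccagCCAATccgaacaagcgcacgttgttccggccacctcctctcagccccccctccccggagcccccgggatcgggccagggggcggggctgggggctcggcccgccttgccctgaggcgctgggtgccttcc
INSIG1, chr7:155297628-155297877, plus strand, CCAAT box beginning 170 bases and E-box 55 bases before the start: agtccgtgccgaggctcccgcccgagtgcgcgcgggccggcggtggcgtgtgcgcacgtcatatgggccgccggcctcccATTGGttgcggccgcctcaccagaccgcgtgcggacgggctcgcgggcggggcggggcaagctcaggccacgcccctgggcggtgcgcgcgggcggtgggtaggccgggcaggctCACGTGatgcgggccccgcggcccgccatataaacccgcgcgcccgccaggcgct
For HMGCS1 there were 2 starts listed, and 1 for each of the others. In the gene annotation of RefSeq, STARD4-AS1 lies over the STARD4 window and INSIG1-DT over the INSIG1 window.

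The deposited values were log2 expression, and their level differed between arrays: the median gene read 6.38 and 6.06 with DMSO and 5.87 and 5.68 with nocodazole. Control rows moved too, with a median change of -0.42 over 155 ERCC rows, which match no human gene. The median of the ERCC rows was 5.34 and 4.60 with DMSO and 4.79 and 4.30 with nocodazole, so the groups overlapped there. The cause of the lower level with nocodazole was not tested. The arrays were quantile-normalized, which would also remove a real fall shared by most genes. Values below are on that scale unless the deposited scale is named. On the deposited scale, the medians of the background control rows of the arrays were 3.72 to 4.81. As deposited, all 30 members lay above that median of the same array on all 4 arrays. Markers were set against background on the deposited scale too. The line's mesenchymal markers VIM, FN1, CDH2 and THY1 read 7.93 to 10.79 on the 4 arrays. Of the 8 measured osteoblast lineage markers, 7 were above background on all 4 arrays. So were all 5 epithelial markers, at 5.10 to 10.48, and 4 of the 5 measured haematopoietic ones. The same held for 3 of the 5 adipocyte markers and 2 of the 3 hepatocyte markers. The summed log2 level of the osteoblast lineage markers was 51.3 to 51.6 in both groups, but single ones differed in opposite directions. Of the 8, 5 had an unadjusted p under 0.05 in limma, or 62.5% against 9.34% of all genes, and 0 passed. COL1A1 was at -0.69, SPARC at -0.64 and RUNX2 at -0.46, against SPP1 at 0.92 and ALPL at 0.41 (-0.04 as deposited). At that unadjusted threshold limma had 2 of the 4 mesenchymal markers, 1 epithelial, 1 haematopoietic, 0 adipocyte and 0 hepatocyte. All 4 mesenchymal markers had both nocodazole arrays below both DMSO arrays, an order held by 20.1% of all genes. The summed log2 levels of other lists moved with the groups: 35.6 to 36.4 with DMSO and 34.8 to 34.9 with nocodazole for the 4 mesenchymal markers, 36.4 to 37.1 and 36.1 to 36.3 for the 5 epithelial ones, and 25.6 to 25.8 and 26.4 to 26.6 for the 5 measured haematopoietic ones, of which PTPRC was below background on all 4 arrays. Nearly all of the haematopoietic shift was that of CD68, at 0.74, singled out after its value was seen, and the median of that list was -0.01. Adipocyte markers summed to 22.3 on both DMSO arrays and to 22.5 and 23.3 with nocodazole, with ADIPOQ and FABP4 below background on all 4. The hepatocyte marker ALB was below background on all 4 as well, and the summed hepatocyte markers were 14.1 to 14.3 with DMSO and 13.8 to 14.4 with nocodazole. The part of these markers in the results was not tested.

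With nocodazole, none of the 30 measured lipid genes passed the test, in either direction. The median log2 difference was -0.17 over the 21 sterol pathway genes, of which 6 had values above 0, and -0.18 over the 7 fatty acid pathway genes, where the median of all genes was -0.01. Single genes ran from -0.50 for IDI1 to 0.42 for HMGCS1. The 95% interval of every one of the 30 differences stayed inside a 2-fold change either way, as did 92.7% of the intervals of all genes. Of the 30, 20 stayed inside a 1.5-fold change, as did 12173 of all 21469 genes. These intervals are for single genes on the quantile-normalized scale only, without adjustment for their number. The test was limma's moderated test over all 21469 genes with Benjamini-Hochberg adjustment, which called 60 genes, or 0.279% of those tested, with 0.182% higher and 0.0978% lower (adjusted p under 0.05). At an unadjusted p under 0.05 limma had 0 members higher and 3 lower (IDI1, EBP and FADS2). The 3 lower are 10.0% of the members, where 5.44% of all genes were lower and 9.34% differed in either direction.

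**Figure D1:**
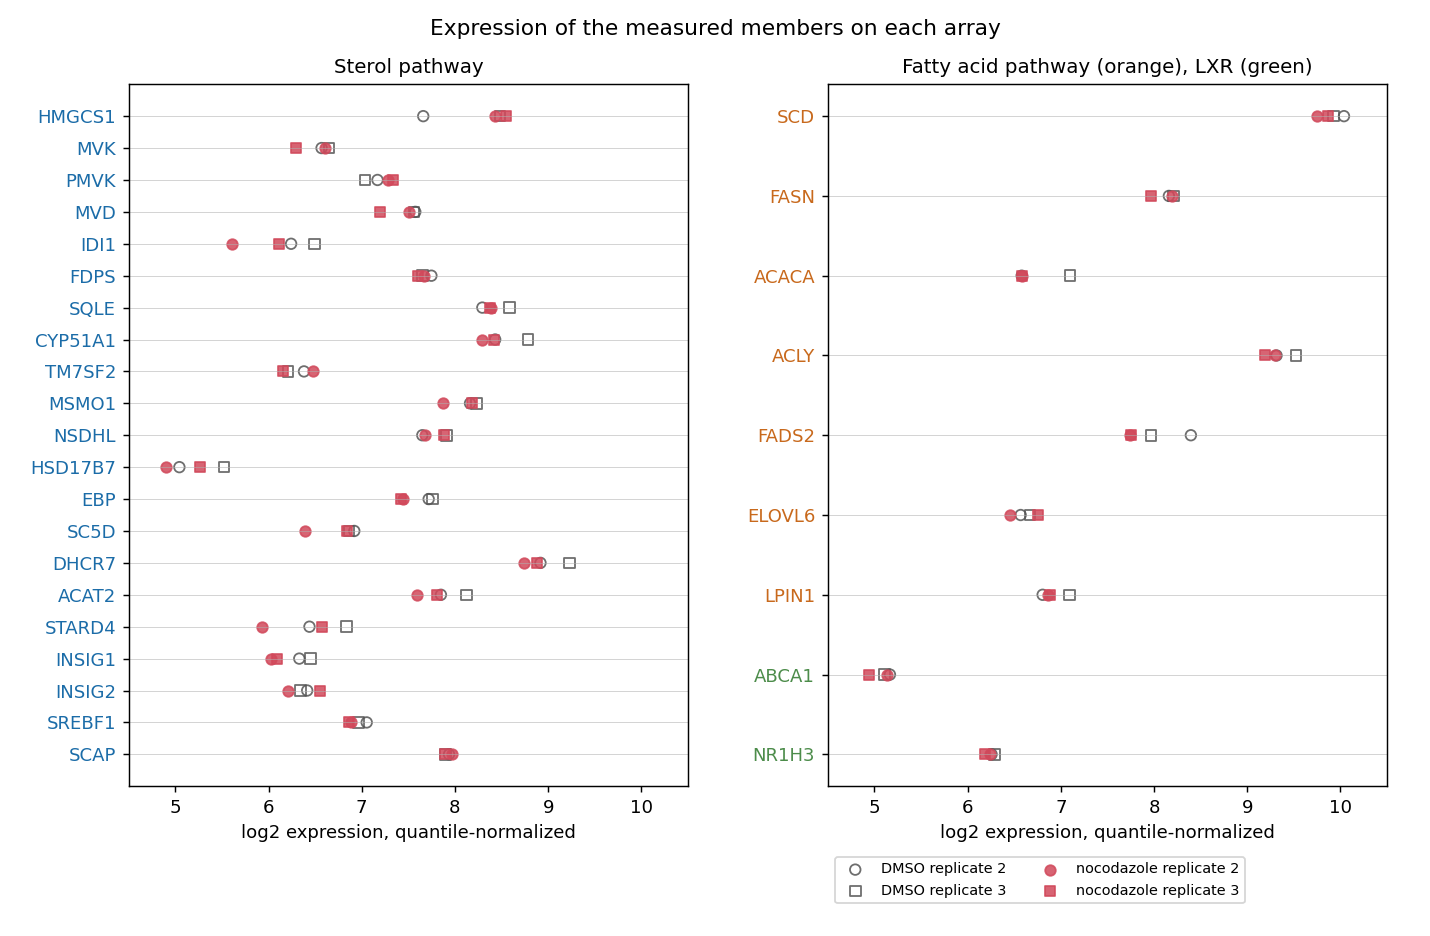
Quantile-normalized log2 expression (x axis) of each of the 30 measured members (rows), with DMSO arrays as open grey symbols, nocodazole arrays as filled red symbols, circles for replicate 2 and squares for replicate 3. The groups lie close together or mixed in most rows, and the DMSO replicate 2 value of HMGCS1, 7.66, lies apart from the other 3 arrays.

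**Figure D2:**
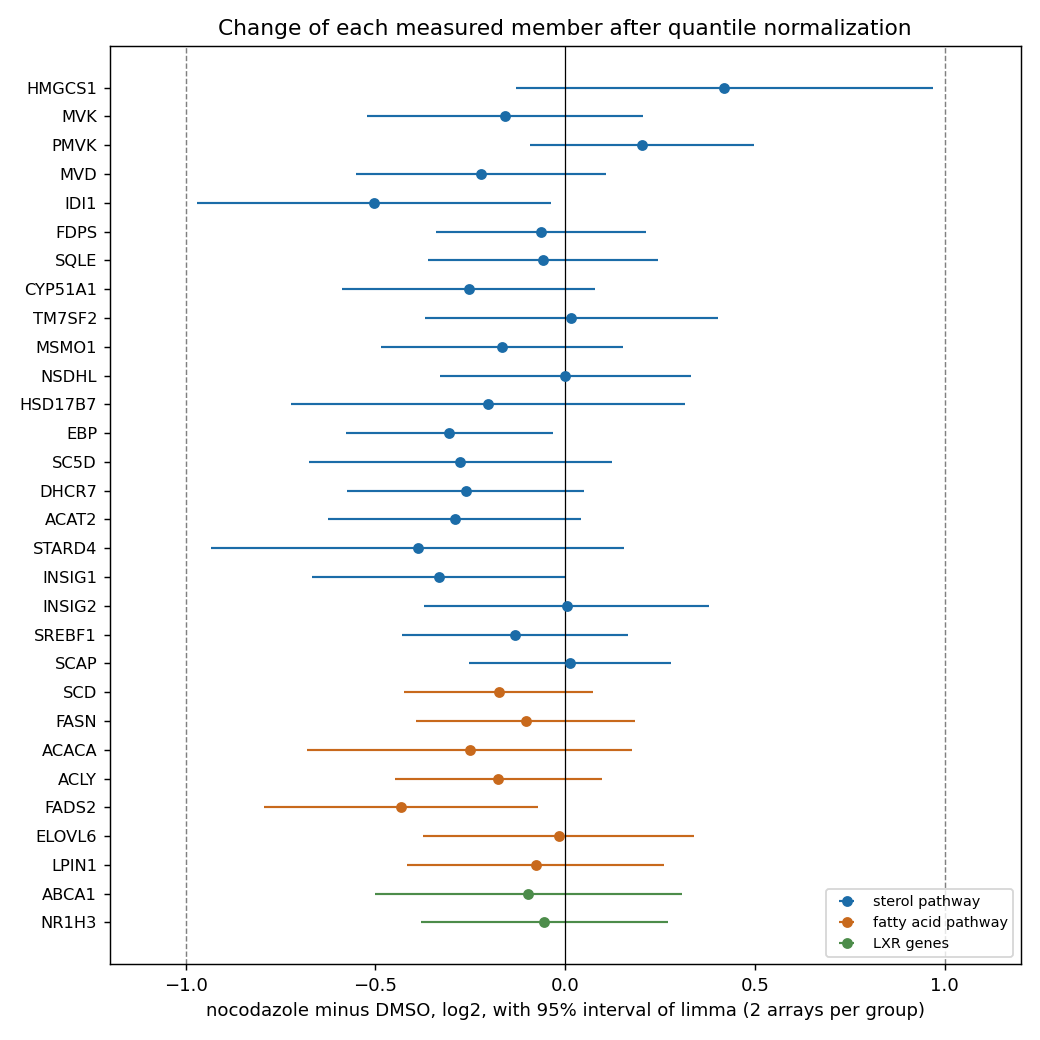
Difference nocodazole minus DMSO on the log2 scale (x axis) of each measured member (rows), with its 95% interval from limma on 2 arrays per group; dashed lines mark a 2-fold change in each direction. Every interval lies between the dashed lines, and those of IDI1, EBP and FADS2 do not reach 0.

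The first steps of the mevalonate pathway differed in sign. HMGCS1, the cytosolic synthase that makes HMG-CoA, read 7.66 and 8.48 on DMSO replicates 2 and 3 and 8.43 and 8.55 on nocodazole replicates 2 and 3. One DMSO array was low and the other lay among the nocodazole arrays, so the groups overlapped. Its log2 difference of 0.42 ± 0.24 (SE, n = 2 per group; limma adjusted p = 0.689) was smaller than the gap of 0.82 between the DMSO arrays. Without DMSO replicate 2 it was 0.01, and without DMSO replicate 3 it was 0.81. Mevalonate kinase (MVK) and mevalonate diphosphate decarboxylase (MVD) had differences of -0.16 and -0.22, while phosphomevalonate kinase (PMVK), which acts between them, had 0.20. MVK read 6.57 and 6.65 with DMSO and 6.61 and 6.29 with nocodazole, and MVD read 7.57 and 7.56 with DMSO and 7.50 and 7.19 with nocodazole; in both, nocodazole replicate 3 was the low array. PMVK read 7.17 and 7.04 with DMSO and 7.28 and 7.33 with nocodazole, and it was the 1 member of 30 whose nocodazole arrays both lay above both DMSO arrays, an order held by 16.4% of all genes. ACAT2, the cytosolic thiolase that supplies acetoacetyl-CoA, read 7.85 and 8.13 with DMSO and 7.59 and 7.80 with nocodazole. Its nocodazole arrays lay below both DMSO arrays, by 0.29 on average (limma adjusted p = 0.611).

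IDI1, the isomerase that interconverts the isoprenoid building blocks, had the lowest difference of the members on all 4 arrays. It read 6.24 and 6.49 with DMSO and 5.61 and 6.11 with nocodazole. Both nocodazole arrays were lower, and the gap between them was as wide as the difference between the groups, -0.50 ± 0.20 (SE, n = 2 per group; limma adjusted p = 0.481). It was -0.26 without nocodazole replicate 2, when FADS2 and others were lower, and -0.74 without nocodazole replicate 3. FDPS, which makes farnesyl diphosphate, and SQLE, which oxidises squalene, differed least among the enzymes up to the first sterol, by -0.06 each. FDPS read 7.75 and 7.65 with DMSO and 7.67 and 7.61 with nocodazole. SQLE read 8.29 and 8.59 with DMSO and 8.38 and 8.38 with nocodazole, with both nocodazole arrays between the DMSO arrays.

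Of the 8 measured enzymes that turn lanosterol into cholesterol, 6 had values from -0.30 to -0.17 and the other two lay close to 0. EBP, the sterol isomerase, read 7.72 and 7.76 with DMSO and 7.45 and 7.42 with nocodazole. Its replicates lay within 0.04 of each other in each group, and the groups were apart by -0.30 ± 0.12 (SE, n = 2 per group; limma adjusted p = 0.458). DHCR7, the last reductase of the pathway, read 8.92 and 9.23 with DMSO and 8.75 and 8.88 with nocodazole. CYP51A1, the lanosterol demethylase, read 8.43 and 8.79 with DMSO and 8.29 and 8.42 with nocodazole. In both genes the nocodazole arrays lay just under the lower DMSO array, and the log2 differences were -0.26 and -0.25 (limma adjusted p = 0.633 and 0.689). SC5D, a sterol desaturase, read 6.92 and 6.86 with DMSO and 6.39 and 6.84 with nocodazole, so that its difference of -0.28 came from 1 nocodazole array and was -0.06 without it. MSMO1, the methylsterol monooxygenase, read 8.16 and 8.23 with DMSO and 7.88 and 8.19 with nocodazole, a difference of -0.17 with overlapping groups. HSD17B7, a sterol ketoreductase, read 5.04 and 5.52 with DMSO and 4.90 and 5.26 with nocodazole, a difference of -0.20. Its pseudogene copy HSD17B7P2 has a row of its own, with a difference of -0.09, and whether the rows share signal was not tested. TM7SF2, a sterol reductase, read 6.38 and 6.21 with DMSO and 6.47 and 6.15 with nocodazole. NSDHL, a sterol dehydrogenase, read 7.65 and 7.91 with DMSO and 7.67 and 7.88 with nocodazole. The groups overlapped in both genes, whose differences of 0.02 and 0.00 were -0.42 and -0.49 as deposited and below 0 after median centring.

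The sensing arm of the pathway had 4 measured members and STARD4, which carries sterol between membranes. INSIG1, the retention protein whose gene is itself a target of SREBP, read 6.33 and 6.45 with DMSO and 6.03 and 6.09 with nocodazole. The groups did not overlap, and the log2 difference was -0.33 ± 0.14 (SE, n = 2 per group; limma adjusted p = 0.540). Its relative INSIG2 read 6.41 and 6.34 with DMSO and 6.21 and 6.55 with nocodazole, a difference of 0.00 that was -0.42 as deposited and -0.01 after median centring; the contrast between the INSIG genes was not tested. SREBF1, which encodes SREBP-1, read 7.05 and 6.96 with DMSO and 6.89 and 6.87 with nocodazole, a difference of -0.13 (95% interval -0.43 to 0.16). SCAP, the escort protein, read 7.94 and 7.90 with DMSO and 7.97 and 7.90 with nocodazole. Its difference of 0.01 had a 95% interval of -0.25 to 0.28, and it was -0.48 as deposited and -0.07 after median centring. STARD4 read 6.44 and 6.83 with DMSO and 5.92 and 6.57 with nocodazole. Replicate 3 exceeded replicate 2 in both groups by more than the groups differed, which was -0.39 ± 0.24 (limma adjusted p = 0.719). It was -0.07 without nocodazole replicate 2 and -0.70 without nocodazole replicate 3.

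In the fatty acid pathway all 7 measured genes had values under 0, as 52.4% of all genes did. FADS2, the delta-6 desaturase of polyunsaturated fatty acids, had the lowest. It read 8.39 and 7.97 with DMSO and 7.75 and 7.75 with nocodazole. The nocodazole arrays were alike and below both DMSO arrays, which stood 0.43 apart, and the log2 difference was -0.43 ± 0.16 (SE, n = 2 per group; limma adjusted p = 0.420). It was -0.22 without DMSO replicate 2 and -0.63 without DMSO replicate 3. SCD, the stearoyl-CoA desaturase, read 10.04 and 9.93 with DMSO and 9.75 and 9.86 with nocodazole. ACLY, which makes cytosolic acetyl-CoA from citrate, read 9.31 and 9.52 with DMSO and 9.30 and 9.19 with nocodazole. Neither gene's groups overlapped, and both differed by -0.18 (limma adjusted p = 0.727 and 0.765). ACACA, the acetyl-CoA carboxylase of the rate-limiting step, read 6.58 and 7.10 with DMSO and 6.59 and 6.59 with nocodazole. Its difference of -0.25 came from DMSO replicate 3 and was 0.01 without that array. FASN, the fatty acid synthase, read 8.16 and 8.21 with DMSO and 8.19 and 7.97 with nocodazole, a difference of -0.10 with a 95% interval of -0.39 to 0.19. LPIN1, a phosphatidate phosphatase, read 6.80 and 7.09 with DMSO and 6.86 and 6.88 with nocodazole. ELOVL6, an elongase of saturated fatty acids, read 6.57 and 6.67 with DMSO and 6.45 and 6.75 with nocodazole. In both the groups overlapped, and the differences were -0.08 and -0.02.

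Of the LXR genes, ABCA1, the cholesterol exporter, read 5.17 and 5.11 with DMSO and 5.14 and 4.94 with nocodazole. NR1H3, which encodes LXR alpha, read 6.26 and 6.29 with DMSO and 6.24 and 6.19 with nocodazole. The differences were -0.10 (95% interval -0.50 to 0.31) and -0.06 (95% interval -0.38 to 0.27), and limma gave an adjusted p of 0.967 and 0.980.

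The size of the treatment difference was set against the replicate gap for each member. In 21 of the 30, or 70.0%, the difference between the groups was smaller than the larger of the gaps between replicates, as it was in 74.4% of all genes. The median size was 0.18 for the difference and 0.29 for the gap, against 0.13 and 0.27 over all genes. INSIG1 and EBP stood out on the other side, with differences of 0.33 and 0.30 in size against larger gaps of 0.12 and 0.04. The nocodazole arrays both lay below both DMSO arrays in 13 of the 30 members, of which 9 were sterol pathway genes, 3 fatty acid pathway genes and 1 an LXR gene, and in 20.1% of all genes. Of the 30, 24 had a value under 0, or 80.0%, where 52.4% of all genes did.

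**Figure D3:**
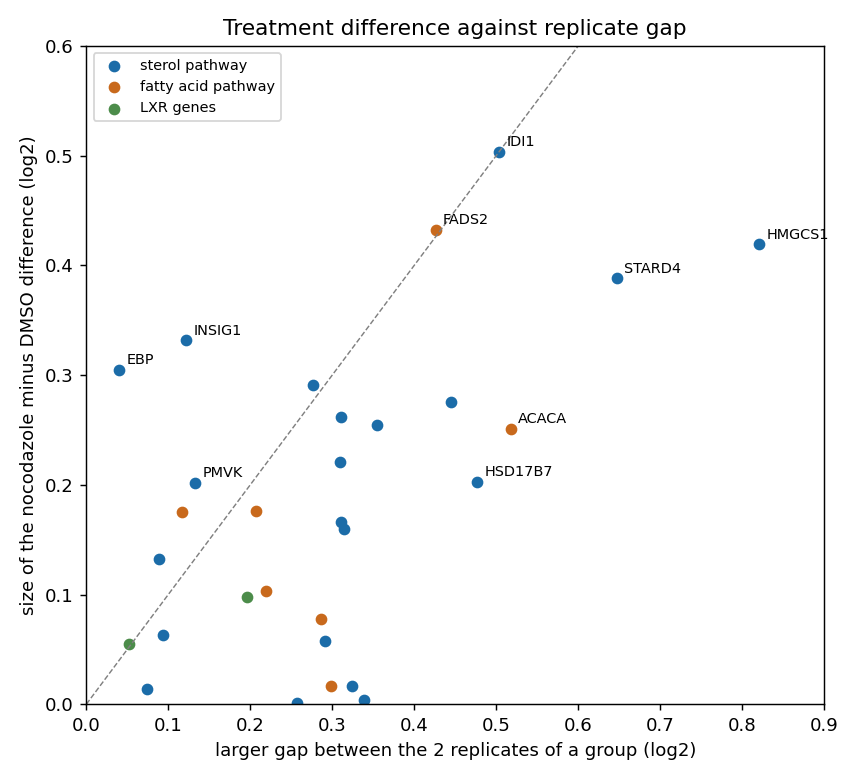
Size of the log2 difference between the groups (y axis) against the larger of the 2 gaps between replicates (x axis) for the 30 measured members, coloured by pathway; on the dashed line the values are equal. The 21 members under the line differed less between treatments than between replicates, HMGCS1 with the widest gap, 0.82.

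The scale of the arrays set the count of calls. As deposited, limma called 22 of the 30 members lower and 0 higher, where it called 24.9% of all genes lower and 0.238% higher, and 33.1% of the genes that were not dim lower. All 30 differences were under 0 on that scale, with a median of -0.62 over the members and -0.45 over all genes. The called members were 16 sterol pathway genes and 6 fatty acid pathway genes. FADS2 read 8.59 and 8.24 with DMSO and 7.49 and 7.52 with nocodazole as deposited, a difference of -0.91 ± 0.15 (limma adjusted p = 0.000148). IDI1 had the lowest deposited difference, -0.93 ± 0.23 (limma adjusted p = 0.0049). HMGCS1 and PMVK, above 0 after quantile normalization, were at -0.07 and -0.25 as deposited and were not called there. NSDHL and SCAP were also above 0 after quantile normalization, at 0.00 and 0.01. As deposited they were among the genes called lower, at -0.49 and -0.48 (limma adjusted p = 0.0194 and 0.0150). After median centring, limma called 0 of the 30 members and 0.0932% of all genes; 28 of the 30 values were under 0, the median was -0.21 over the members and -0.03 over all genes, and no member had an unadjusted p under 0.05.

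**Figure D4:**
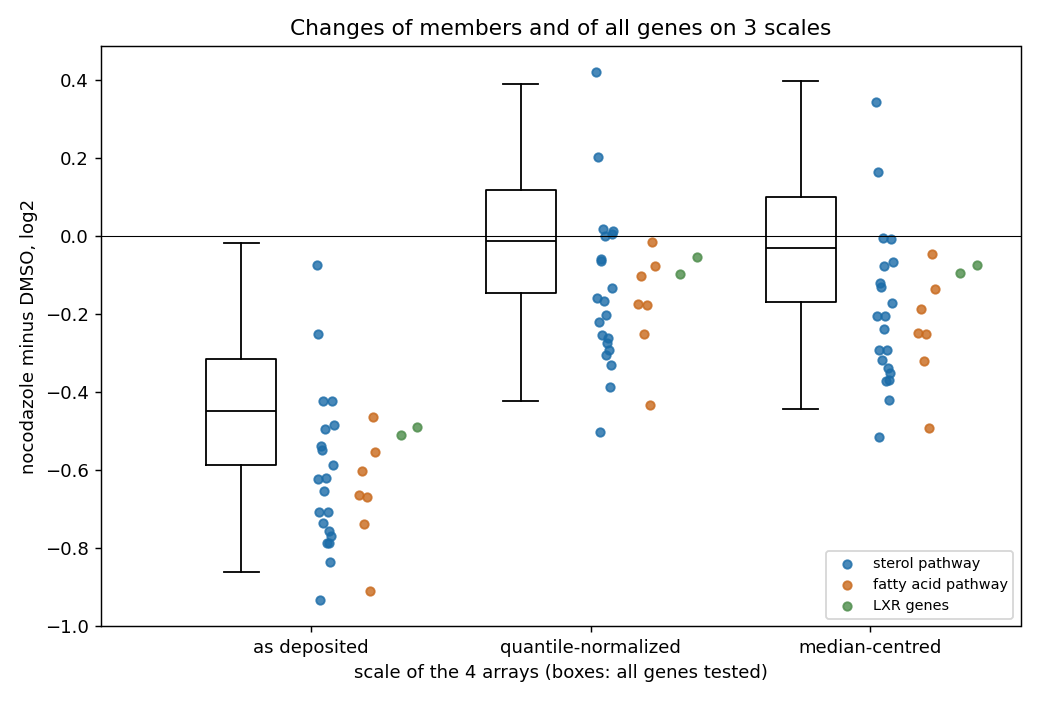
Log2 difference nocodazole minus DMSO (y axis) of the measured members (points, coloured by pathway) and of all genes tested (boxes from the lower to the upper quartile with the median, whiskers from the 5th to the 95th percentile) on 3 scales of the arrays. All genes were centred at -0.45 as deposited and near 0 on the other scales, and most members lay under the median of all genes on each scale.

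Further genes of the pathways were taken from lists that left out the members. Of 31 sterol genes 26 were measured, of 34 fatty acid genes 29 and of 14 LXR genes 9, and limma called 0 in either direction in all 3 lists; at an unadjusted p under 0.05 it had 1 higher and 3 lower, 1 higher and 3 lower, and 0 higher and 2 lower. These are 15.4%, 13.8% and 22.2% of the measured genes of each list, against 9.34% of all genes. Their median log2 differences were -0.11, -0.03 and -0.14. NPC1, which exports cholesterol from lysosomes, had the highest value of the sterol list. It read 6.87 and 7.13 with DMSO and 7.84 and 7.84 with nocodazole. Both nocodazole arrays were above both DMSO arrays, by 0.84 ± 0.14 (SE, n = 2 per group; 95% interval 0.52 to 1.15; limma adjusted p = 0.0599), and the difference was 0.35 as deposited. SOAT1, which esterifies cholesterol for storage, came next with 0.25, which was -0.25 as deposited. LBR, a nuclear membrane protein that is also a sterol reductase, read 8.12 and 8.21 with DMSO and 7.37 and 7.74 with nocodazole, a difference of -0.61 ± 0.15 (limma adjusted p = 0.209). NFYB, a subunit of NF-Y, had -0.50 (limma adjusted p = 0.335), while the subunits NFYA and NFYC had -0.08 and 0.00.

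In the fatty acid list ACSL5 and ACSL4, which activate long-chain fatty acids, had 0.77 and 0.32 (0.35 and -0.16 as deposited), while HACD2, a dehydratase of the elongation cycle, and ME1, which supplies NADPH, had -0.64 and -0.57. ACSL5 read 4.36 and 4.51 with DMSO and 5.14 and 5.26 with nocodazole (limma adjusted p = 0.181). Its DMSO level was near background: as deposited, DMSO replicate 2 read 4.81, equal to the background median of that array. In the LXR list NCOA1, a coactivator of nuclear receptors, and LPCAT3, a phospholipid-remodelling enzyme under LXR control, had -0.45 and -0.32, and the sterol transporters ABCG8 and ABCG4 had 0.07 and 0.04, which were -0.35 and -0.38 as deposited.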

How the data were processed

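RNA of 4 samples was hybridised to Affymetrix Human Transcriptome Array 2.0, 1 array each, from 100 ng of total RNA per the labels' protocols. The authors deposited log2 expression for each row; the submitters' processing notes name Partek 7.0, RMA and hg19, with settings not stated there. Of 65535 rows, 1530 control rows were left out, and 21771 carried 1 symbol, 1328 several and 40906 none in the platform annotation. The 64005 non-control rows were quantile-normalized and 21469 genes were tested with limma 3.58.1 (R 4.3.3; lmFit, eBayes with a variance trend, two-sided, no block, Benjamini-Hochberg over all genes, threshold 0.05). The members and lists were chosen with earlier results of these data known. All members are named and all 30 measured ones given by array, which covers the rule (members called on the quantile-normalized or deposited scale with the same sign on both, and the largest differences of each pathway). Further pathway genes were named where their difference was among the 2 largest in each direction. HSD17B7P2, NFYA and NFYC were named beside their relatives. Alternatives were the deposited and median-centred values, no variance trend, a replicate block, and each array left out. Others were dim genes (deposited mean under 4.81) left out, and the mean of a gene's rows. The steps were tested on simulated data with changes larger than any member's difference and no level shift between arrays. That test does not show whether changes as small as the members' would be found. A planned comparison of protein sequences was not made, since no protein table was used here. The number of arrays limits the precision.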

Additional observations from a re-analysis of the deposited data

How the results depend on the processing

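No member passed the limma test except on the values as deposited, where 16 sterol pathway genes, 6 fatty acid pathway genes and 0 LXR genes were called, all lower; the list medians there were -0.62, -0.66 and -0.50. The count of all genes called, 60, went to 5392 as deposited, 20 after median centring, 11 without a variance trend, 164 with dim genes left out, 230 with the replicate block and 0 to 2 with 1 array left out (0 without DMSO replicate 2, nocodazole replicate 2 or nocodazole replicate 3), when 1 group is a single array that is assumed to vary like the other. The 4 arrays share only replicate numbers (same-numbered deviations correlated at 0.22 over genes, and at 0.41 as deposited). With the block 0 members were called, the smallest limma adjusted p being 0.128, against 0.420 without it. With 1 array left out the medians ran from -0.21 to -0.095 (sterol), -0.22 to -0.070 (fatty acid) and -0.14 to -0.014 (LXR). Values turned sign as deposited for HMGCS1 (-0.074), PMVK (-0.25), TM7SF2 (-0.42), NSDHL (-0.49), INSIG2 (-0.42) and SCAP (-0.48), and after median centring for TM7SF2 (-0.0057), NSDHL (-0.078), INSIG2 (-0.0069) and SCAP (-0.067). With 1 array left out, values ran across 0 for NSDHL (-0.13 to 0.12), SQLE (-0.21 to 0.087), TM7SF2 (-0.15 to 0.18), HSD17B7 (-0.45 to 0.034), INSIG2 (-0.16 to 0.18), SCAP (-0.023 to 0.049), ACACA (-0.53 to 0.0078), ELOVL6 (-0.16 to 0.14), LPIN1 (-0.23 to 0.063), FASN (-0.21 to 0.0055) and ABCA1 (-0.20 to 0.00044). Of the larger differences that kept their sign, ACAT2 ran from -0.44 to -0.15, CYP51A1 from -0.43 to -0.077 and DHCR7 from -0.42 to -0.11, in each case without DMSO replicate 2 and without DMSO replicate 3, while EBP stayed between -0.33 and -0.27 and INSIG1 between -0.40 and -0.26. The cause was not tested. The other alternatives changed the side of the threshold for no member.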
